A study of Mus musculus with 4 samples.

Results

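Genes of the major histocompatibility complex (MHC) class I pathway and of the proteasome were followed in regulatory T cells (Treg cells), which carry CD4 and Foxp3 and restrain immune responses. The 36 genes were chosen by name as 10 class I chains, 6 genes of peptide loading and class I transcription, 6 genes of the immunoproteasome and its activators, and 14 genes of the constitutive 20S core. All 36 were found among the 27179 genes of the count table. Spleen and peripheral lymph nodes of the C57BL/6 strain, at steady state, were the source of the cells. Expression was read by RNA sequencing in 2 libraries of WT genotype and 2 libraries labelled P65KO, in which the design text names a deficiency of RelA (p65), the NF-kB subunit encoded by Rela. The sources used here do not give how RelA was deleted, the driver of any Cre, the age of the mice or whether replicates came from separate mice, so a p-value here measures spread between libraries that may be technical.

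In the class I pathway, the proteasome cuts cytosolic proteins into peptides, the TAP transporter carries these into the endoplasmic reticulum, and a loading complex fits them into a class I heavy chain paired with beta-2 microglobulin. Interferon-gamma and, in lymphocytes, steady expression replace the catalytic subunits of the constitutive 20S core with those of the immunoproteasome, which favours peptides that class I molecules bind. Promoters of class I genes are known for an NF-kB site in an element called enhancer A and, closer to the start, a module of CRE-like and CCAAT-like boxes at which NLRC5 acts.

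The promoters are shown first because RelA binds DNA at NF-kB sites. RefSeq promoter windows of the build GRCm38.p6 were at hand for 29 of the 36 genes, and the 250 bases before each start were searched on both strands. The NF-kB pattern (GGGA, any 4 bases, CC) stood in 10 of the 29, read from the first window of each gene, against 17.6% of all 32851 windows of that length. It stood in 8 of 9 class I chain promoters, between 110 and 214 bases before the start, in 0 of 3 loading genes, in 0 of 6 genes of the immunoproteasome and its activators, and in 2 of 11 genes of the 20S core (Psmb3 and Psma3). The class I chain without it was H2-T23. Most H2 promoters printed below resemble one another, so their matches are not independent. The CRE core TGACG stood in 7 of the 9 class I promoters (17.8% of all windows) and CCAAT in 9 of 9 (33.8%). The interferon element pattern (GAAA, any 2 bases, GAAA) stood in 3 of the 9 (2.98% of all windows). The antioxidant element pattern (TGAC, any 3 bases, GC), whose letters can overlap the CRE core, stood in 2 of 11 genes of the 20S core and 2 of 9 class I chains (10.2% of all windows). A match is a description of letters, not a binding site. Only exact matches were sought, so a promoter without a match may still hold a variant of the element.

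The stretches below run 5′ to 3′ on the strand of the gene, from 5 bases before the first of the marked patterns to 5 bases after the last. Capitals mark the NF-kB pattern, the CRE core and CCAAT (or its reverse, ATTGG), and in B2m also the interferon element. In H2-M3 the first ATTGG and the NF-kB pattern overlap and run together. They lie at chr17:34000354-34000463 (minus strand), chr17:35262918-35263050, chr17:35379439-35379571, chr17:35424672-35424804, chr17:35439017-35439148, chr17:37270100-37270222 and chr2:122147543-122147643 (plus strand). They are printed to show the letters of the distal NF-kB element in 7 of the 8 class I chain genes that hold it, of which H2-M3 fell and the others did not pass the test.
H2-K1: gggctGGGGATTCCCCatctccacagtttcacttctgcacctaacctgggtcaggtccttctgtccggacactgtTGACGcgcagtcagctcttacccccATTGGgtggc
H2-D1: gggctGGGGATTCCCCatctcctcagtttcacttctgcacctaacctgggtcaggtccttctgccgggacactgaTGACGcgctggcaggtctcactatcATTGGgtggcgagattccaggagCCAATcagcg
H2-Q4: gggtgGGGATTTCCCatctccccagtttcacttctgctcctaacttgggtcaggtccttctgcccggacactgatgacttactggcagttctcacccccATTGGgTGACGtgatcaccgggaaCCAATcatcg
H2-Q6: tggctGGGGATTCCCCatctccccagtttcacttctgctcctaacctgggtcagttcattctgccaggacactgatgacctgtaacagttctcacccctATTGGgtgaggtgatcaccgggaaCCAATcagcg
H2-Q7: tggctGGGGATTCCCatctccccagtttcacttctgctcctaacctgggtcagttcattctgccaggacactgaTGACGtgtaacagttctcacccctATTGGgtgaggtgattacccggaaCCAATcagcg
H2-M3: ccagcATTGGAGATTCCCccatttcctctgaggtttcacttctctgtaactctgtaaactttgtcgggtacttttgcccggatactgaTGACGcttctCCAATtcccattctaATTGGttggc
B2m: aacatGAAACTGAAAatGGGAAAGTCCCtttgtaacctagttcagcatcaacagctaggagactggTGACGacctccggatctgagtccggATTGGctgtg

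Tap1 and Psmb9 lie head to head, with 225 bases between their starts on chromosome 17. The whole interval, chr17:34187331-34187555 on the strand of Tap1, is shown because 1 of these neighbours fell and the other did not pass the test. Whether the changes of Tap1 and Psmb9 differ was not tested, and their intervals overlap (0.71-fold to 0.927-fold for Tap1, 0.786-fold to 1.07-fold for Psmb9). Capitals mark CCAAT and the CRE core. The exact NF-kB pattern was not matched in the printed stretch, which does not show that no NF-kB site lies there.
Tap1: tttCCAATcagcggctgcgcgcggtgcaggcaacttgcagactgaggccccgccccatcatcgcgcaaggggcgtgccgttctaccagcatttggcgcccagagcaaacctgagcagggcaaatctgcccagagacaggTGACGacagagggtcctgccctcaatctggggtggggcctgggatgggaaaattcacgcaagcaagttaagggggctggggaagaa

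Library totals ran from 4513863 to 4624230 counts, with 14025 to 14392 genes detected. Rela, the gene named by the label, had 875 and 806 counts in WT libraries, and P65KO-labelled libraries had 820 and 909, so its whole-gene RNA did not set the groups apart (log2 0.07, SE 0.10; edgeR adjusted p = 0.662). The Treg markers Cd4, Cd3e and Foxp3 were present in all 4 libraries, at 961 to 1150.4, 720.2 to 913 and 370.1 to 527 CPM, the counts scaled to a common library size, and none of the 3 passed the test. The other 3 genes of that list passed, where 20.7% of all tested genes did. Ikzf2 was 3.14-fold lower, Ctla4 1.89-fold lower and Il2ra 1.34-fold higher in P65KO-labelled libraries (edgeR adjusted p of 1.33e-06, 3.63e-05 and 0.0106). The genotype groups also differed in sex-linked transcripts: Xist had 494 and 608 counts in WT libraries against 0 and 2 in the P65KO-labelled ones, while Ddx3y had 0 and 0 against 302 and 404. Genotype and this difference cannot be told apart. Markers of myeloid and dendritic cells, which express class I genes too, moved with the groups: 6 of 10 rose, where 9.0% of all tested genes did. These 6 included Flt3, which passed the filter on low counts only through the P65KO-labelled libraries, while 1 marker did not pass the test and 3 failed the filter. The summed level of the 10 markers was 125 and 184 CPM in WT against 929 and 328 CPM in P65KO-labelled libraries. Of these, Itgax rose 12.2-fold, while Siglech stood at 0 counts in 3 of 4 libraries and Cd14 in 1. Erythroid and platelet markers summed to 15.8 and 21.5 CPM against 70.8 and 135 CPM, with 3 of 6 higher, where 9.0% of all tested genes rose. These 3 included Alas2, which passed the filter in the same way as Flt3, and Pf4 was at 0 counts in all 4 libraries. Of the B cell markers nearly all counts came from Cd79b, at 33.8 and 39.1 CPM against 14.1 and 10.2 CPM, with Pax5 at 0 counts throughout. CD8 T cell markers, nearly all Cd8b1, summed to 25.3 and 25.8 CPM against 32.8 and 32.0 CPM. Cd8b1 did not pass the test, and Cd8a failed the filter on low counts. Stromal and endothelial markers, nearly all Pecam1, summed to 176 and 140.4 CPM against 224 and 248 CPM. Pecam1 rose 1.5-fold (edgeR adjusted p = 0.00277), while Cdh5, Pdgfra and Col1a1 failed the filter. NK cell markers summed to 21.7 and 28.6 CPM against 22.2 and 15.5 CPM, of which Klrb1c was 4.36-fold lower (edgeR adjusted p = 0.000419), while Klrd1, Eomes and Ncr1 did not pass, at log2 fold changes of 1.39, 0.79 and 0.12. The part of these other cells in the results below was not tested, and in bulk RNA fewer cells of a type and less RNA per cell cannot be told apart.

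Most genes of the pathway differed little between the groups, and 5 members were lower in P65KO-labelled libraries by 1.23-fold to 1.64-fold. These were Psme2, a subunit of the PA28 activator, Tapbpl (TAPBPR) and Tapbp (tapasin), which edit and load peptides, Tap1, a chain of the peptide transporter, and H2-M3, a class I chain that presents N-formylated peptides. A gene is said to fall or rise only at an adjusted p under 0.05 in the quasi-likelihood test of edgeR, adjusted after Benjamini and Hochberg over all 11172 genes tested. All 36 members passed the filter on low counts and were tested. The 5 calls, all lower, are 13.9% of the members, against 11.7% of all tested genes called lower (20.7% in either direction), so the share lies near the background. None was called higher, against 9.0% of tested genes, and none of the members with a positive difference had an unadjusted p under 0.05. The adjusted count of higher members was 0 as well with DESeq2 and with limma-voom. Each of the 5 calls ended without WT replicate 1, without WT replicate 2 and with no filter on low counts, with edgeR adjusted p up to 0.226, while the direction held.

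Over the 36 members the median log2 fold change was -0.08 and the median size of the change 0.11, against 0 and 0.22 over all genes tested. The difference was below 0 in 28 members (77.8%), against 49.8% of tested genes. The 2 groups did not overlap in CPM for 18 members, 50% against 60.4% of tested genes. In 15 of the 36 members both P65KO-labelled libraries lay below both WT libraries, against 30.8% of tested genes. The widest 95% intervals of single members ran from 0.485-fold (Psme2) to 1.56-fold (Psma5).

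**Figure D1:**
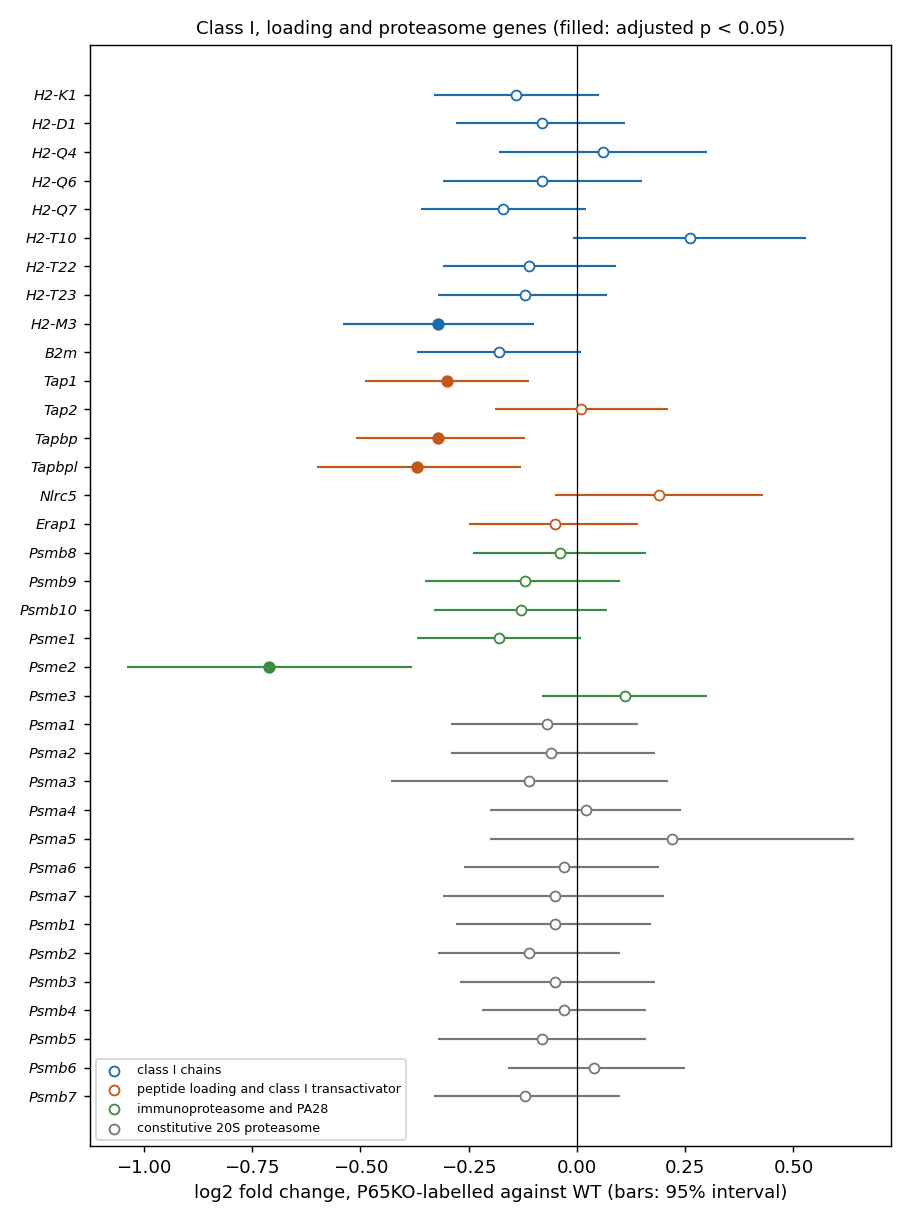
Log2 fold change of each of the 36 genes in P65KO-labelled against WT libraries (x axis; genes on the y axis, coloured by role), with 95% intervals from edgeR. The 5 filled points, H2-M3, Tap1, Tapbp, Tapbpl and Psme2, are those at an adjusted p under 0.05, and all lie below 0.

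The 10 class I chains, B2m included, held 1.82% and 1.76% of all WT counts, against 1.54% and 1.61% in the P65KO-labelled libraries, so both P65KO-labelled shares were the lower ones. Of the 10 chains, 1 fell, 0 rose and 9 did not pass, where 11.7% of all tested genes fell, with a median log2 fold change of -0.12. In RPKM, which divides by gene length and so allows genes to be compared, the mean WT levels ran from 6700.2 ± 57.4 for B2m, 3464 ± 131 for H2-K1 and 2162 ± 92.7 for H2-D1 down to 54.5 ± 0.833 for H2-M3 and 14.2 ± 1.23 for H2-T10 (SD, n = 2). The summed heavy chains stood at 1.13 and 1.10 times B2m per length in WT and at 1.17 and 1.15 times in P65KO-labelled libraries, a ratio formed after the values were seen.

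H2-M3 (Entrez 14991; GRCm38 chromosome 17, 37270234 to 37274485) had 76.6 and 76.0 CPM in WT and 60.3 and 61.9 CPM in P65KO-labelled libraries. Both P65KO-labelled values lay below both WT values, with a log2 fold change of -0.32 (SE 0.10; adjusted p = 0.0421 by edgeR). It was the only class I chain called, and 0.576% of the 50-base stretches of its transcripts recur in another annotated gene. Without WT replicate 1 the adjusted p was 0.171 and with DESeq2 it was 0.403.

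The classical heavy chains H2-K1 and H2-D1, which present peptides to CD8 T cells, carry the NF-kB pattern printed above. H2-K1 had 5721 and 5495 CPM in WT and 4943 and 5226 CPM in P65KO-labelled libraries. The log2 fold change was -0.14 (SE 0.09; edgeR adjusted p = 0.303), with an interval of 0.793-fold to 1.04-fold. H2-D1 had 3779.5 and 3604 CPM against 3387 and 3582 CPM, with an interval of 0.825-fold to 1.08-fold. B2m, the invariant light chain, had 5652 and 5658 CPM against 4817 and 5161 CPM (log2 -0.18, SE 0.09; edgeR adjusted p = 0.182), with an interval of 0.772-fold to 1.01-fold. In all these 3 genes both P65KO-labelled libraries were the lower ones, yet none passed the test. The upper bounds of the intervals allow a rise of at most 1.08-fold, and the lower bounds a fall to 0.772-fold.

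The differences of the nonclassical chains lay on both sides of 0, and only H2-M3 passed the test. H2-Q7, a Qa-2 chain, had 897 and 878 CPM in WT and 772 and 806 CPM in P65KO-labelled libraries (log2 -0.17, SE 0.09; edgeR adjusted p = 0.202). H2-Q6, its neighbour, had 244 and 237 CPM against 204 and 251 CPM, so the groups overlapped. H2-Q4 (Qb-1) overlapped too, at 285 and 235 CPM against 252 and 290.4 CPM. H2-T23 (Qa-1), which engages the CD94 and NKG2A receptor of NK and T cells, had 659 and 716 CPM against 640.1 and 621 CPM, with a log2 fold change of -0.12. H2-T22 and H2-T10 are ligands of some gamma-delta T cell receptors. H2-T22 had 429 and 477 CPM against 429 and 409.5 CPM, and H2-T10, by contrast, had its higher values in P65KO-labelled libraries, 47.3 and 49.1 CPM against 42.4 and 38.0 CPM (log2 0.26, SE 0.12; edgeR adjusted p = 0.163). The values of this family are uncertain, since 29.8% of the 50-base stretches of H2-T23 transcripts and 34.9% to 43.9% of those of H2-Q4, H2-Q6, H2-Q7, H2-T10 and H2-T22 recur in other annotated genes. For H2-T10 the largest share, 40.2% of its stretches, recurs in H2-T22. For H2-K1 and H2-D1 the shared part was 6.87% and 13.9%, and for B2m it was 0.

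Genes of peptide loading held 3 of the 5 calls: of 6 members, 3 fell, 0 rose and 3 did not pass, where 11.7% of all tested genes fell. With 6 genes in the list, nothing particular to it is read from this. Tapbp (Entrez 21356; chromosome 17, 33919478 to 33929290) bridges TAP and the class I chain, and it had 721 and 660.1 CPM in WT and 544 and 565 CPM in P65KO-labelled libraries. The log2 fold change was -0.32 (SE 0.09; edgeR adjusted p = 0.0271), or 1.24-fold lower. Tap1 (Entrez 21354; chromosome 17, 34187556 to 34197225) had 566 and 568 CPM against 445 and 475 CPM, 1.23-fold lower (log2 -0.30, SE 0.09; edgeR adjusted p = 0.0294). In both genes the groups were apart, and the replicates of a group lay closer together than the groups did. Tapbpl (Entrez 213233; chromosome 6, 125223927 to 125231860), a peptide editor that works outside the loading complex, had 106 and 91.9 CPM against 78.7 and 74.7 CPM, 1.29-fold lower (log2 -0.37, SE 0.11; edgeR adjusted p = 0.0295). With DESeq2, Tap1 and Tapbp passed (adjusted p of 0.0213 and 0.0123) and Tapbpl did not (0.220). Without P65KO-labelled replicate 1 the edgeR adjusted p of the 3 genes were 0.213 for Tap1, 0.177 for Tapbp and 0.0913 for Tapbpl, and without P65KO-labelled replicate 2 they were 0.105, 0.127 and 0.185.

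**Figure D2:**
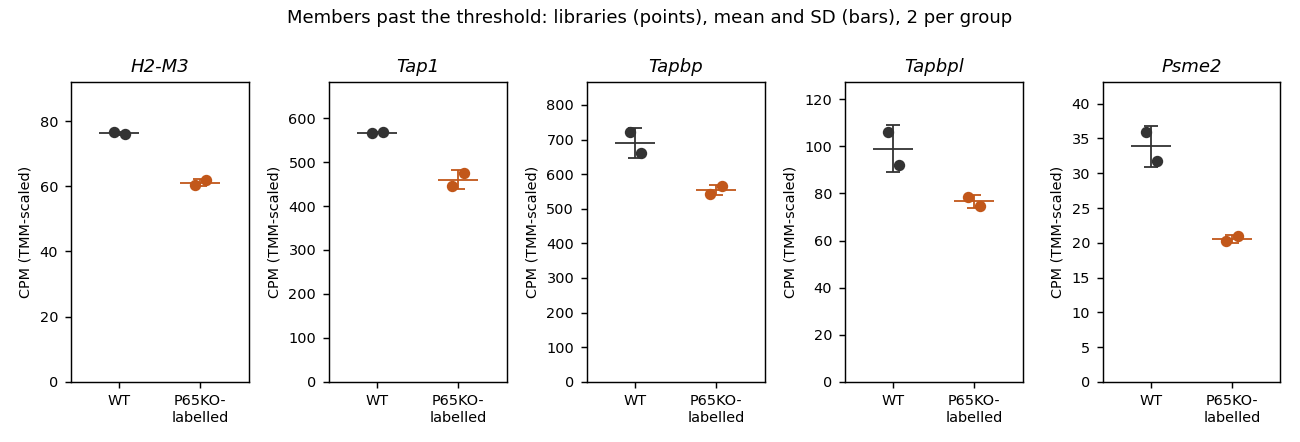
CPM scaled by TMM (y axis, from 0) of the 5 members at an adjusted p under 0.05, with 1 point per library, the mean and the SD of 2 libraries per group. In each panel both P65KO-labelled points lie below both WT points, as for Psme2 at 20.2 and 21.0 against 35.9 and 31.8.

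The other chain of the transporter, Tap2, had 288 and 259.5 CPM in WT and 271 and 281 CPM in P65KO-labelled libraries, with a log2 fold change of 0.01 (SE 0.09) and an interval of 0.878-fold to 1.16-fold. TAP works as a heterodimer of the 2 chains. Per length, Tap1 stood at 1.66 and 1.85 times Tap2 in WT and at 1.38 and 1.43 times in P65KO-labelled libraries, so this ratio was lower in both of the latter. This ratio was formed after the values were seen. Erap1 trims peptides in the endoplasmic reticulum, and at 242 and 252 CPM against 229.8 and 247 CPM its groups overlapped. Nlrc5, the class I transactivator, had 179 and 153 CPM against 174 and 205 CPM (log2 0.19, SE 0.11; edgeR adjusted p = 0.261), also overlapping. Of these loading genes, 22.4% of the 50-base stretches of Tapbp, 6.27% of Tap1, 3.69% of Tapbpl and 12.1% of Tap2 recur in other annotated genes. Tap1 and Psmb9 also overlap on opposite strands in GENCODE M21, and no source used here gives the strand setting of the counting.

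The catalytic subunits of the immunoproteasome did not pass the test. Psmb8 (beta-5i) had 707 and 772 CPM in WT and 742 and 695 CPM in P65KO-labelled libraries, with an interval of 0.845-fold to 1.12-fold. Psmb9 (beta-1i), across the promoter from Tap1, had 250.1 and 298 CPM against 261 and 242 CPM (log2 -0.12, SE 0.10), with an interval of 0.786-fold to 1.07-fold. Psmb10 (beta-2i) had 254 and 279 CPM against 243 and 245 CPM, with an interval of 0.798-fold to 1.05-fold. In Psmb8 and Psmb9 the groups overlapped, and in Psmb10 both P65KO-labelled libraries were the lower ones.

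Psme2 (PA28-beta; Entrez 19188; chromosome 14, 55587440 to 55591101) showed the largest log2 fold change of the 36 genes. WT libraries held 166 and 148 counts of it and the P65KO-labelled ones 92 and 95, or 35.9 and 31.8 CPM against 20.2 and 21.0 CPM. It was 1.64-fold lower (log2 -0.71, SE 0.15; edgeR adjusted p = 0.00508), with an interval of 0.485-fold to 0.766-fold, and the groups were well apart. The call held without either P65KO-labelled library (edgeR adjusted p of 0.0323 and 0.0319) and ended without WT replicate 1 (0.104), without WT replicate 2 (0.0523), with no filter on low counts (0.0527) and with DESeq2 (0.110). Of its 50-base stretches 54.9% recur in Psme2b, a near-identical copy, so that its value rests on the other stretches or on how the counting treated shared reads.

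Psme1 (PA28-alpha), which forms a mixed ring with PA28-beta, lies 5912 bases away from Psme2. It had 374 and 372 CPM in WT and 328 and 331 CPM in P65KO-labelled libraries. Both P65KO-labelled values were lower, at log2 -0.18 (SE 0.09), and the test was not passed (edgeR adjusted p = 0.176). Psme3 (PA28-gamma), the nuclear form, had 184 and 180.3 CPM against 192 and 201 CPM, higher in both P65KO-labelled libraries at log2 0.11 (edgeR adjusted p = 0.436). The 3 PA28 genes thus lay on both sides of 0, with 1 call.

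None of the 14 genes of the constitutive 20S core passed the test, where 20.7% of all tested genes did. These encode the alpha ring, which gates the core, and the beta ring, which cuts proteins. The count was 0 with edgeR, DESeq2 and limma-voom, and 0 had an unadjusted edgeR p under 0.05. The median log2 fold change was -0.05 and single values ran from -0.12 (Psmb7) to 0.22 (Psma5). All 14 intervals lay within 0.742-fold to 1.56-fold, and both ends of that range came from genes with few counts (Psma3 at 129 to 156 counts, Psma5 at 63 to 74 counts).

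Among the alpha subunit genes, Psma1 stood at 157 ± 14.9 against 149.6 ± 0.566, Psma2 at 148 ± 18.5 against 142 ± 12.1, Psma3 at 31 ± 3.47 against 28.8 ± 0.569 CPM (mean ± SD, n = 2, WT first). Likewise, Psma4 stood at 127 ± 12.6 against 129 ± 5.78 CPM, Psma6 at 206 ± 17.8 against 202 ± 21.3 CPM, Psma7 at 203 ± 25.6 against 195 ± 25.7 CPM. In all 6 the groups overlapped. Psma5 had 63 and 65 counts in WT against 74 and 72, the subunit with the largest positive difference (log2 0.22, SE 0.19; edgeR adjusted p = 0.470). Of the catalytic beta subunits, Psmb5, which cuts after hydrophobic residues, stood at 79.8 ± 8.51 against 75.5 ± 3.32 CPM. Psmb6, which cuts after acidic residues, stood at 119 ± 1.57 against 123 ± 5.8 CPM, and Psmb7, which cuts after basic residues, at 100.5 ± 2.44 against 92.7 ± 4.82 CPM. The noncatalytic beta subunit genes lay at 406 ± 51.5 against 391 ± 17.3 (Psmb1), 115 ± 3.27 against 106 ± 6.48 (Psmb2), 78.3 ± 6.08 against 75.9 ± 1.45 (Psmb3), 299.7 ± 9.62 against 293 ± 7.23 (Psmb4) CPM. Of the beta genes, only in Psmb2 and Psmb7 did the groups not overlap, with both P65KO-labelled libraries lower.

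Although the subunits assemble in equal numbers, their RNA levels per length spanned a wide range, from 399 ± 46.9 RPKM for Psmb1 and 321 ± 7.34 RPKM for Psmb4 to 22.1 ± 2.26 RPKM for Psma3 and 11.6 ± 0.0771 RPKM for Psma5 in WT (SD, n = 2). The lowest, Psma5, was also a gene with many shared stretches, 55.4%, and Psmb3 and Psmb5 had 55.8% and 54.1%, whereas Psma1, Psma6, Psma7, Psmb2 and Psmb4 had none. The sources used here do not say how the counting treated shared reads, so levels of the former genes are uncertain.

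The 20S genes differed in 1 direction between replicates of a group. All 14 were higher in WT replicate 2 than in WT replicate 1, with a median log2 difference of 0.18, and 13 of 14 were lower in P65KO-labelled replicate 2 than in P65KO-labelled replicate 1, with a median of -0.09. Over all tested genes both medians rounded to 0. Between the groups the median was -0.05. Summed over the 14 genes, the level was 1960.3 and 2209 CPM in WT and 2099 and 1941 CPM in P65KO-labelled libraries, so 1 P65KO-labelled value lay between the WT values and the other below both. The summed Psmb8, Psmb9 and Psmb10 moved the same way, at 1212 and 1349 CPM in WT and 1246 and 1182 CPM in P65KO-labelled libraries. The 10 class I chains did not follow: 3 of 10 were higher in WT replicate 2 than in WT replicate 1. In the P65KO-labelled libraries 8 of 10 were higher in replicate 2 than in replicate 1.

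**Figure D3:**
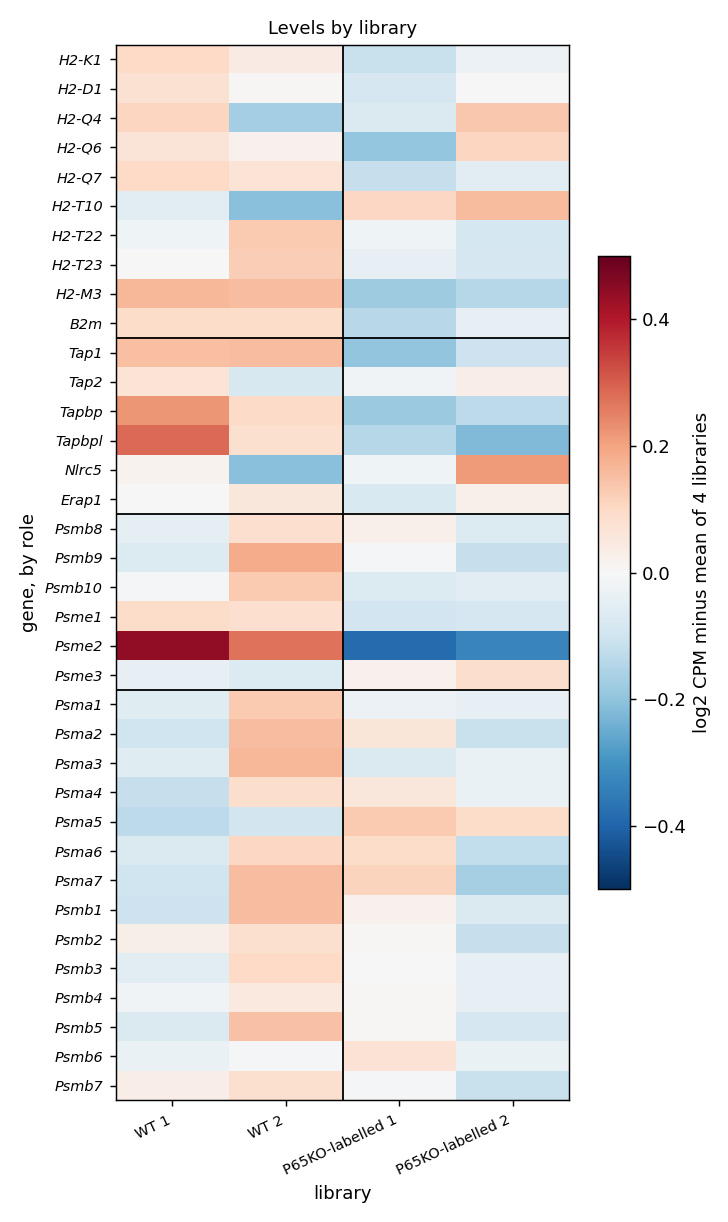
Log2 CPM of each gene (y axis, by role) in each library (x axis) minus its mean over the 4 libraries, red above and blue below. The 20S block at the bottom is redder in WT 2 than in WT 1 for all 14 genes, while Tap1, Tapbp, Tapbpl, H2-M3 and Psme2 are red in both WT libraries and blue in both P65KO-labelled libraries.

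Each immunoproteasome subunit takes the place of 1 constitutive subunit, and the ratio within a library needs no scaling between libraries. Per length, Psmb8 stood at 6.81 and 6.40 times Psmb5 in WT and at 6.78 and 6.76 times in P65KO-labelled libraries. Psmb9 stood at 2.73 and 3.19 times Psmb6 against 2.65 and 2.63 times, and Psmb10 at 1.96 and 2.08 times Psmb7 against 1.93 and 2.09 times. The immunoproteasome subunit was thus the more abundant RNA of each pair in every library. The log2 ratio differed between the groups by 0.04, -0.16 and -0.01, and of the 3 only Psmb9 over Psmb6 had groups that did not overlap. Two-sided exact permutation tests gave p = 1, 0.333 and 1, or 1, 0.999 and 1 after Benjamini-Hochberg adjustment over the 3 ratios. With 2 libraries against 2 the smallest p possible is 0.333, so no ratio could pass. Of the stretches of Psmb5 54.1% are shared with other genes, of Psmb7 28.1%, of Psmb9 9.71%, of Psmb8 5.51%, of Psmb6 2.67% and of Psmb10 0. The levels of all 3 ratios are therefore uncertain, that of the first the most.

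**Figure D4:**
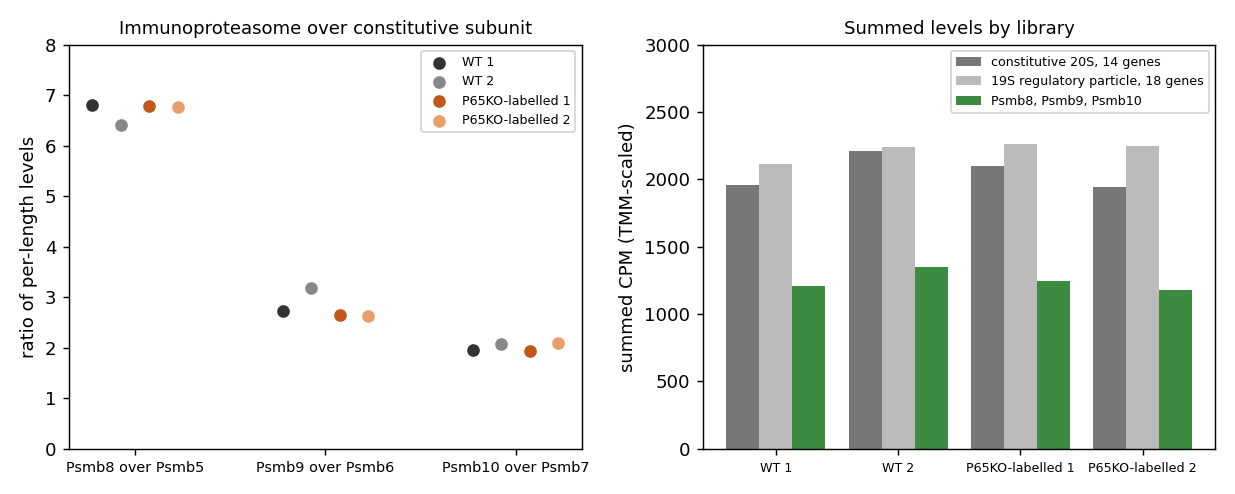
Left, ratio of per-length levels of each immunoproteasome subunit to its constitutive counterpart (y axis, from 0), with 1 point per library. Right, summed CPM (y axis, from 0) of the 14 genes of the 20S core, 18 genes of the 19S particle and the 3 immunoproteasome subunits in each library, where the 20S sum is highest in WT 2, at 2209 CPM.

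Neighbouring parts of the pathway were read from lists. The 19S regulatory particle, which recognises and unfolds ubiquitinated proteins, had 0 of 18 genes called with edgeR, DESeq2 and limma-voom, where edgeR called 20.7% of all tested genes. In this list 0 had an unadjusted edgeR p under 0.05, and the median log2 fold change was 0.06. Its summed level was 2115 and 2238 CPM in WT and 2259.5 and 2248 CPM in P65KO-labelled libraries. Of 10 tested assembly factors and other activators, 1 rose and 9 did not pass, where 9.0% of all tested genes rose. The gene called was Psmg2, a chaperone of core assembly, at 19.1 and 19.5 CPM against 33.0 and 24.1 CPM (log2 0.56, edgeR adjusted p = 0.0446). That call ended with DESeq2 and limma-voom. The proteasome lists thus held 1 call outside the 36 genes, in a gene with a spread of 6.29 CPM (SD) between P65KO-labelled libraries.

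Among 11 endoplasmic reticulum partners and peptidases of class I loading, 4 fell, 7 did not pass and 0 rose, where 11.7% of all tested genes fell and 9.0% rose. The median log2 fold change was -0.10. Calr (calreticulin), the lectin chaperone of the loading complex, had 755 and 797 CPM in WT and 558 and 593 CPM in P65KO-labelled libraries, 1.35-fold lower (log2 -0.43; edgeR adjusted p = 0.00443). Pdia3 (ERp57), the oxidoreductase of that complex, had 929 and 976 CPM against 756 and 752 CPM, 1.26-fold lower (edgeR adjusted p = 0.0161). Pdia3 was named after its values were seen. The general chaperone gene Hspa5 (BiP), which serves the folding of secretory proteins at large, was 1.47-fold lower, and Blmh, a cytosolic aminopeptidase, 1.39-fold lower. Of the loading complex, Tap1, Tapbp, Calr and Pdia3 were thus lower, and Tap2, H2-K1, H2-D1 and B2m did not pass. This set joins genes of separate lists, and 11.7% of all tested genes fell, so nothing particular to the complex is read from it. Of the 11 partners and peptidases, 3 were called with DESeq2 and 1 with no filter on low counts.

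Of 22 regulators of class I and proteasome genes, 4 fell, 16 did not pass and 2 rose, or 6 called where 20.7% of all tested genes were. The median log2 fold change was -0.02. Jak2, a kinase of the interferon-gamma receptor, had 175 and 163 CPM in WT and 128 and 125 CPM in P65KO-labelled libraries, 1.34-fold lower (log2 -0.42; edgeR adjusted p = 0.00641). Ifnar2, a chain of the type I interferon receptor, had 136 and 141 CPM against 106 and 109 CPM, 1.29-fold lower (edgeR adjusted p = 0.0143). Irf1, a factor that activates class I and immunoproteasome promoters, had 371 and 342 CPM against 301 and 281 CPM, 1.23-fold lower (edgeR adjusted p = 0.0398), and was named after its values were seen. The interferon-gamma receptor chain gene Ifngr2 rose 1.42-fold, and Nfe2l2 (NRF2), a factor of antioxidant and proteasome genes, 1.40-fold. Nfe2l1, which drives the recovery of proteasome genes, did not pass, at a log2 fold change of 0.03. With DESeq2 2 of the 22 were called, both lower, and without WT replicate 1 or WT replicate 2 only 1.

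Among 18 class I and class I-like genes outside the 36, 4 rose, 0 fell, 7 did not pass and 7 failed the filter on low counts, with 0 to 8 counts. Of all tested genes, 9.0% rose and 11.7% fell. Of the 4, Hfe, Fcgrt and H2-M2 passed that filter only through the P65KO-labelled libraries, so their calls follow in part from it. Hfe, which takes part in iron sensing, had 5 and 7 counts in the WT libraries against 83 and 36. Fcgrt, the neonatal Fc receptor, had 7 and 15 against 59 and 27 counts. H2-M2, a class Ib chain, had 1 and 3 against 27 and 14 counts. All 3 had their highest count in P65KO-labelled replicate 1, as did the myeloid genes Lyz2 (633 CPM there against 193 CPM in the other P65KO-labelled library) and Csf1r (96.1 against 39.1 CPM), whose part in these calls was not tested. Lyz2 and Csf1r were named after their values were seen. H2-T24, the other gene called, had 36.8 and 41.6 CPM against 53.2 and 51.9 CPM, named after its values were seen. The number of this list called was 3 with DESeq2, and 0 without WT replicate 1, without WT replicate 2 and with no filter on low counts.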

How the data were processed

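RNA of Treg cells was sequenced in 2 WT and 2 P65KO-labelled libraries, grouped by sample title. Libraries were made with a TruSeq RNA kit, per the labels' protocols. The submitters' processing notes name Subread, featureCounts, limma and the build GRCm38 (mm10); no source used here gives versions, strand or the treatment of shared reads. Raw counts for each Entrez gene and log2 RPKM values were deposited by the authors, per the file headers. The latter equal counts plus 0.5 per gene length and library total, unscaled between libraries, and gave whole-number gene lengths within 0.01 for 27178 of 27179 genes.

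Low counts were removed with filterByExpr, libraries scaled by TMM, and groups compared on the counts with the two-sided quasi-likelihood F test of edgeR 4.0.16 (R 4.3.3), with Benjamini-Hochberg adjustment over 11172 genes and a threshold of 0.05. Genes without a symbol, 571 in all, have identifiers and were kept. SE is the log2 fold change divided by the square root of F, and intervals are unadjusted 95%. CPM is TMM-scaled; RPKM is the deposited value. The script was tested on simulated counts of 11009 genes, 200 of them changed. There edgeR recovered 10% of genes changed 1.25-fold, 42% at 1.5-fold and 88% at 2-fold. The data held far more calls, 2310 of 11172 genes, which makes the adjustment less strict than in the simulation. These rates therefore do not give the power in the data. A gene that did not pass the test may still differ by the folds within its interval. Alternatives were DESeq2 1.42.0, limma-voom (limma 3.58.1), RLE factors, no scaling, no filter, a replicate block and leaving out each library. Shared sequence is the share of 50-base stretches of coding transcripts found in another gene of GENCODE M21, on either strand. In that annotation 21 of 35 matched members overlap another gene.

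The members and lists were chosen with earlier results of these data known. All 36 members are named; of the other lists, up to 3 called genes per direction with the largest fold change, unless said otherwise. Some genes of these lists are not reported here. Of 123 symbols in 13 other lists, 2 were not found. Coordinates and promoters are RefSeq, GRCm38.p6. Within each group the replicates differed beyond sampling noise, with chi-square over its degrees of freedom at 3.49 (WT) and 3.97 (P65KO-labelled).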

Additional observations from a re-analysis of the deposited data

How the results depend on the processing

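Over all tested genes, 1219 were called with DESeq2, 771 with no filter on low counts and 743 to 1633 when 1 library was left out, of 2310. Of the 5 members called lower, DESeq2 kept 2 (Tap1 and Tapbp), no filter kept 0, and leaving out 1 library kept 0 to 1. RLE factors, limma-voom and no scaling kept all 5 with the same direction. The 0 members called higher held in all settings tried. The sign of 3 small differences that had no call changed with no scaling (Tap2 at -0.04, Psma4 at -0.03, Psmb6 at -0.0032). The causes were not tested. The sample titles share replicate numbers but do not say what a number pairs, and the deviations of same-numbered libraries correlated at -0.137 over 11172 genes. With the replicate number as a block, 2 members were called lower (Psme2 and Tapbpl). With the numbers crossed, a pairing chosen after seeing the data, 2973 genes and 5 members were called.

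Leaving out 1 library also changed the sign of differences without a call, with log2 ranges of -0.07 to 0.21 (H2-Q4), -0.23 to 0.07 (H2-Q6), -0.06 to 0.09 (Tap2), -0.11 to 1.9e-05 (Erap1), -0.11 to 0.02 (Psmb8), -0.25 to 0.01 (Psmb9), -0.17 to 0.03 (Psma1), -0.18 to 0.08 (Psma2), -0.22 to 0.01 (Psma3), -0.08 to 0.13 (Psma4), -0.14 to 0.07 (Psma6), -0.19 to 0.08 (Psma7), -0.18 to 0.08 (Psmb1), -0.12 to 0.04 (Psmb3), -0.07 to 0.0015 (Psmb4), -0.19 to 0.03 (Psmb5), -0.0017 to 0.09 (Psmb6), -0.01 to 0.08 (immunoproteasome to constitutive subunit ratio, Psmb8 over Psmb5), -0.07 to 0.05 (immunoproteasome to constitutive subunit ratio, Psmb10 over Psmb7). With 1 library left out, a group holds 1, which is taken to vary like the other group. Psma5, at 63 to 74 counts a library, had the widest interval upward, to 1.56-fold.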
